A study of Mus musculus with 12 samples.

Results

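The genes described here are 10 classical markers of the epithelial-mesenchymal transition (EMT): the transcription factors Snai1, Snai2, Zeb1, Zeb2 and Twist1, the intermediate filament genes Vim and Nes, and the cadherins Cdh1, Cdh2 and Cdh11. They were taken by symbol from the 45859 gene rows of the deposited tables, and each symbol matched a single row. RNA was measured in mouse lens capsules with their attached lens cells (LCs), in 12 libraries that form 4 groups of 3. WT LCs (C57BL/6) were collected at 0 hours or at 24 hours post cataract surgery (PCS), a procedure in which the fiber cell mass is pulled out through the cornea and the capsule with its epithelium stays behind. β8ITG-cKO LCs (mixed C57BL/6 and 129S1/Sv) were collected at the same times and carry an Itgb8 allele with a loxP-flanked exon, removed by the lens-specific MLR10-Cre transgene, whose activity begins early in lens development and is not limited to the epithelium. All 4 groups came from 2-month-old adults that had undergone the surgery, and each library pooled several capsules. The genotypes differ in strain background as well as in Itgb8, and these cannot be told apart in any comparison of β8ITG-cKO with WT. Gene-level FPKM of Itgb8 cover all of its exons and therefore do not check the deletion: its lowest to highest FPKM were 7.26 to 10.78 in WT 0 h, 8.38 to 9.58 in WT 24 h, 4.58 to 7.31 in β8ITG-cKO 0 h and 9.28 to 11.83 in β8ITG-cKO 24 h.

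EMT is the program in which an epithelial cell gives up its cell-cell junctions and takes on a migratory, matrix-producing state. Snail and ZEB proteins are zinc finger repressors that bind E-box sequences and are best known for silencing E-cadherin, and Twist1 is a basic helix-loop-helix factor of the same program. Cadherins join neighbouring cells through their outer domains and bind catenins inside the cell. The lens epithelium is unusual in that it normally carries both E-cadherin and N-cadherin and is rich in vimentin, and LCs left on the capsule after cataract surgery can become myofibroblasts and cloud the capsule. The comparisons ask how LCs changed in the day after surgery and whether this differed without αVβ8 integrin, a receptor that activates latent TGF-β.

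Values are FPKM (fragments per kilobase of transcript, set against all mapped fragments), which are scaled for gene length, so that levels of different genes can be set side by side. Summed FPKM were 446531 to 740140 per library and the 10 highest genes held 36.0% to 49.6% of the sum. The files give no read totals and so no absolute depth, while relative depth, read from the spacing of the lowest FPKM, was 0.88 to 1.09. Differences are on the log2(FPKM + 1) scale, which understates changes of genes near or below 1 FPKM. They were tested with limma-trend across all genes of at least 0.5 mean FPKM, with Benjamini-Hochberg adjustment, and a gene is said to have risen or fallen only where the adjusted p was at most 0.05. Genes that passed and also met the study's size criteria (more than 2-fold, more than 2 FPKM apart, with 1 group at 2 FPKM or above) are counted beside it as the second rule. Each fit was repeated under alternatives, namely other pseudocounts, filters, scalings and estimates of the spread, and with each library left out. Because the tissue is bulk RNA, fewer cells of a type and less RNA per cell cannot be told apart.

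The LC identity of the samples was checked against 8 lens epithelium markers, all of which were detected. Their summed FPKM, of which Cryab is the largest part, were 12365, 13740 and 10416 in WT 0 h, 5585, 4881 and 4335 in WT 24 h, 12866, 15055 and 14941 in β8ITG-cKO 0 h and 3273, 4159 and 3798 in β8ITG-cKO 24 h. The libraries also held RNA of other cells in unequal amounts. The 8 lens fiber markers summed to 8941, 10290 and 7065 FPKM in WT 0 h and to 2564, 1116 and 2059 FPKM in WT 24 h. In β8ITG-cKO LCs they summed to 10329, 10838 and 11282 FPKM at 0 hours and to 1508, 1453 and 1398 FPKM at 24 hours PCS. The 8 retina markers summed to 323, 1085 and 128 FPKM in WT 0 h, 67.7, 120 and 127 FPKM in WT 24 h, 308, 165 and 244 FPKM in β8ITG-cKO 0 h and 912, 768 and 916 FPKM in β8ITG-cKO 24 h. All 8 were higher in β8ITG-cKO 24 h than in both β8ITG-cKO 0 h and WT 24 h, beside 35.4% and 5.64% of all genes. WT 24 h replicate 3 alone had 55.4 FPKM of 4 corneal epithelium markers, mostly Krt15 at 46.38 FPKM, against 2.57 to 12 FPKM in the other 11 libraries. Krt12 of the same list was at 4.62, 0.13 and 0.00 FPKM in WT 24 h, and so was not raised in replicate 3. Neutrophil markers went from at most 1.41 FPKM in any 0 h library to 45.5 to 64.8 FPKM in WT 24 h and 12.1 to 35 FPKM in β8ITG-cKO 24 h. Whether these cells took part in the changes below was not tested.

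**Figure D1:**
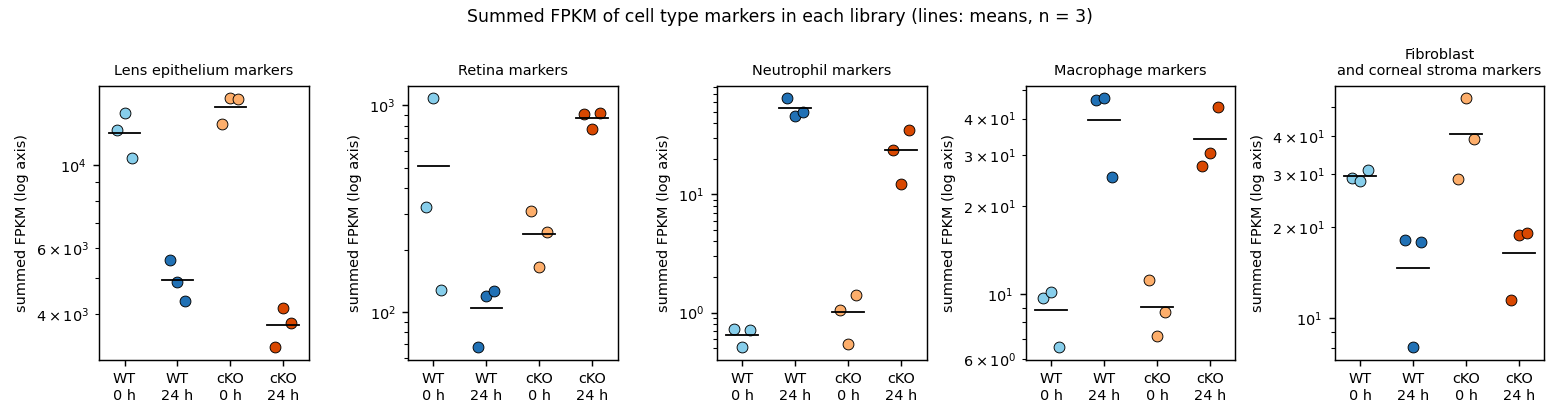
Summed FPKM (log axis) of 5 marker lists in each of the 12 libraries, by group; points are libraries and lines are means of 3. Lens epithelium sums, mostly Cryab, lie lower at 24 h in both genotypes, and the 3 β8ITG-cKO 24 h libraries hold 768 to 916 FPKM of retina markers against 67.7 to 127 in WT 24 h.

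Within a group the 10 genes covered a wide range of levels. In WT LCs at 0 hours PCS the order of mean levels was Vim (1493), Cdh2 (67.1), Cdh1 (59.1), Zeb2 (26.7), Nes (13.1), Zeb1 (11), Cdh11 (2.43), Snai2 (0.671), Twist1 (0.391) and Snai1 (0.342 FPKM). The ranges over the 3 libraries overlapped between Nes and Zeb1, between Snai2 and Twist1 and between Twist1 and Snai1, so that these neighbours did not differ beyond their spread. In WT LCs at 24 hours PCS Nes was second after Vim, although its range overlapped that of Cdh1, and Snai1 had passed Snai2 and Twist1. In β8ITG-cKO LCs Cdh1 came next after Vim at 0 hours PCS, and at 24 hours PCS it lay below Cdh2 and Nes as well. The ZEB genes were thus the abundant factors of the 5 in these cells and Snai2 and Twist1 stayed below 1.2 FPKM in every library.

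**Figure D2:**
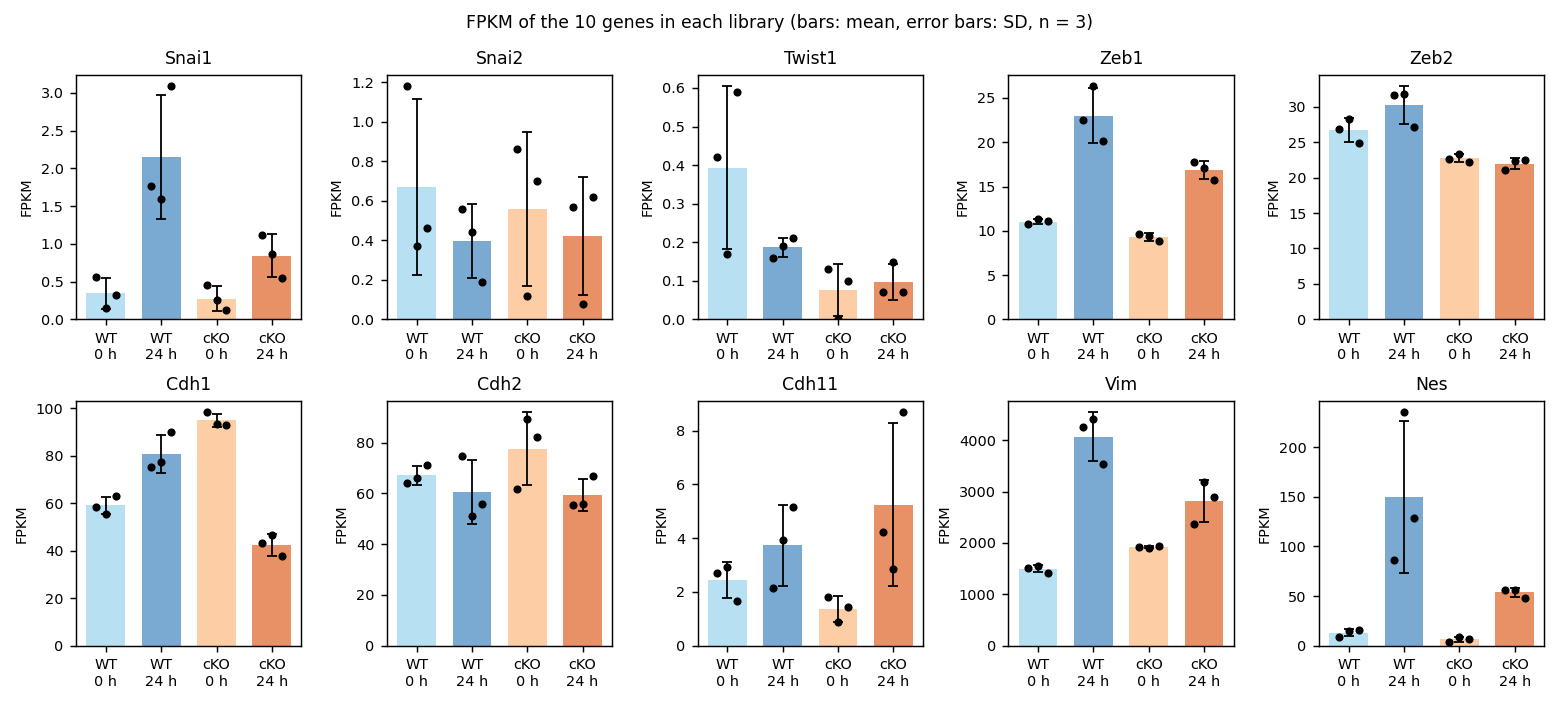
FPKM of each of the 10 genes (vertical axis, linear and different for each gene) in the 4 groups; points are the 3 libraries, bars the mean and error bars the SD. Cdh1 is lower in WT than in β8ITG-cKO at 0 h (59.1 against 95 FPKM on average) and higher at 24 h (80.9 against 42.4 FPKM).

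Twist1 was too low to be tested in any comparison, Snai2 in β8ITG-cKO over time and between genotypes at 24 hours, and Snai1 between genotypes at 0 hours. Of the 9 genes tested in WT LCs over time, 5 rose by 24 hours PCS (Snai1, Zeb1, Vim, Nes and Cdh1) and 0 fell, beside 20.9% of all 15146 genes tested that rose and 8.81% that fell. Zeb1, Vim and Nes, 3 of the 9, also met the second rule, as did 14.3% of all genes. In β8ITG-cKO LCs 5 of 8 tested genes rose (Snai1, Zeb1, Vim, Nes and Cdh11) and Cdh1 alone fell, where 35.4% of all 15237 genes rose and 10.7% fell. Nes, Cdh1 and Cdh11 met the second rule, and 15.1% of all genes did. The median change was 0.44 over the 9 genes and 0.16 over all genes in WT, and 0.53 over the 8 genes and 0.23 over all genes in β8ITG-cKO. Rescaling every library to the same median moved the all-gene medians to -0.05 and 0.00 and the calls over all genes from 3165 higher and 1335 lower to 2195 and 2444 in WT, and from 5394 and 1636 to 3217 and 3005 in β8ITG-cKO. Changes over time of the 10 genes are therefore also given after this rescaling where it alters a call or a direction, and the gene lists with their rescaled counts. With 3 libraries a group, an exact permutation test of a single gene cannot go below p = 0.1, and no such test was used.

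Snai1 encodes Snail, an early and short-lived EMT repressor, and lies on chromosome 2 from 167538195 to 167542814 (GRCm38). It was at 0.56, 0.15 and 0.32 FPKM in WT 0 h and at 1.77, 1.59 and 3.09 FPKM in WT 24 h, with all 24 h libraries above all 0 h libraries. The mean was 0.342 ± 0.206 FPKM before and 2.15 ± 0.821 FPKM after (SD, n = 3), and the log2 change was 1.21 (standard error 0.23, limma-trend adjusted p = 0.00791). In β8ITG-cKO LCs it was at 0.45, 0.26 and 0.12 FPKM at 0 hours and at 1.12, 0.86 and 0.55 FPKM at 24 hours PCS, again without overlap. That rise of 0.53 (standard error 0.17, limma-trend adjusted p = 0.0395) was lost after rescaling (0.43, adjusted p = 0.0916), with no filter on low values (adjusted p = 0.0609), with the spread taken from all 12 libraries (adjusted p = 0.0592) and in 3 of the 5 fits with a library left out that could test it (without β8ITG-cKO 0 h replicate 2 or 3 or 24 h replicate 2, adjusted p = 0.0924, 0.124 and 0.0957). The difference between both changes was -0.69 (standard error 0.29, limma-trend adjusted p = 0.173), which did not pass.

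Reference promoter windows, covering 250 bases before a transcript start (RefSeq, GRCm38.p6), were at hand for 5 of the 10 genes and are printed for the 3 of these whose RNA rose. The letters CACCTG and their reverse complement CAGGTG, the E-box that Snail and ZEB proteins are known to bind, were looked for on both strands and are in capitals. They occur in 17.2% of all 32851 such windows. Among the 5 genes, only the Snai1 window (chr2:167537945-167538194, plus strand) held them, as CACCTG beginning 126 bases before the start. The windows of Vim (chr2:13574061-13574310, plus strand), Nes (chr3:87970843-87971092, plus strand), Zeb2 and Twist1 did not. A match describes the sequence and is not a binding site.
Snai1: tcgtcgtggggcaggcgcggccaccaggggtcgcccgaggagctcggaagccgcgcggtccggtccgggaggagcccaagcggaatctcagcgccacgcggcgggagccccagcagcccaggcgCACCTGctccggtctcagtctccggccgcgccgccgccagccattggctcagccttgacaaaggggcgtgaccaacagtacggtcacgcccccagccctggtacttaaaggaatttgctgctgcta
Vim: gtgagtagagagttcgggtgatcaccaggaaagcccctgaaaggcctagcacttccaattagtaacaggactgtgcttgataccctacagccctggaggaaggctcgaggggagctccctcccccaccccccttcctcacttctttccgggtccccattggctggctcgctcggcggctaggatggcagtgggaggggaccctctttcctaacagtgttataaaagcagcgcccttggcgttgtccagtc
Nes: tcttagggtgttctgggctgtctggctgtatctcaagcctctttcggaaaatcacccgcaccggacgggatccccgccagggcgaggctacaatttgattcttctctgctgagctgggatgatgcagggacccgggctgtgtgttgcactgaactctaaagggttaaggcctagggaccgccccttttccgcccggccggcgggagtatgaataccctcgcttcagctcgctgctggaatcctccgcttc

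Zeb1 and Zeb2, paralogous zinc finger homeobox repressors, behaved differently over the day after surgery. Zeb1 (chromosome 18) was at 10.75, 11.33 and 11.06 FPKM in WT 0 h and at 22.55, 26.33 and 20.16 FPKM in WT 24 h. In β8ITG-cKO LCs it went from 9.65, 9.40 and 8.85 FPKM to 17.76, 17.04 and 15.76 FPKM. The 24 h libraries were above the 0 h libraries without overlap in both genotypes. Zeb1 rose by 0.99 in WT (standard error 0.14, adjusted p = 0.00271) and by 0.79 in β8ITG-cKO (standard error 0.09, adjusted p = 0.000411, both limma-trend), and it passed in all 13 alternatives of each comparison. The difference between these changes was -0.20, with a 95% interval of -0.53 to 0.14 (limma-trend adjusted p = 0.49).

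Zeb2 (chromosome 2, from 44983512 to 45117442) was more abundant than Zeb1 in every library and moved little. It was at 26.83, 28.25 and 24.94 FPKM in WT 0 h, 31.66, 31.84 and 27.11 FPKM in WT 24 h, 22.67, 23.36 and 22.21 FPKM in β8ITG-cKO 0 h and 21.07, 22.33 and 22.54 FPKM in β8ITG-cKO 24 h. The 0 h and 24 h libraries overlapped in both genotypes. Its change was 0.17 in WT (limma-trend adjusted p = 0.362), turning to -0.09 after rescaling, and -0.05 in β8ITG-cKO (adjusted p = 0.672), which became -0.34 and passed after rescaling (adjusted p = 0.0122). The ratio of Zeb1 to Zeb2 FPKM within a library, a measure chosen after the values were seen, averaged 0.415 and 0.409 in the WT and β8ITG-cKO 0 h libraries and 0.761 and 0.768 in those at 24 h. Zeb2 shares 653 exon bases with the antisense gene Zeb2os (mean 1.2 FPKM) and Zeb1 shares 198 with Gm10125 (mean 0.446 FPKM), and how strand was used in counting is not given in the sources used here.

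Snai2, which encodes the Snail relative Slug (chromosome 16, from 14705859 to 14709385), and Twist1 (chromosome 12, from 33957671 to 33959831) were near the lower end of what these libraries resolve. Snai2 was at 1.18, 0.37 and 0.46 FPKM in WT 0 h, 0.56, 0.44 and 0.19 FPKM in WT 24 h, 0.86, 0.12 and 0.70 FPKM in β8ITG-cKO 0 h and 0.57, 0.08 and 0.62 FPKM in β8ITG-cKO 24 h. Its groups overlapped throughout, and its change in WT was -0.24 (limma-trend adjusted p = 0.477). Twist1 was below the mean of 0.5 FPKM needed for testing in every comparison, with 0.42, 0.17 and 0.59 FPKM in WT 0 h, 0.16, 0.19 and 0.21 FPKM in WT 24 h, 0.13, 0 and 0.10 FPKM in β8ITG-cKO 0 h and 0.07, 0.15 and 0.07 FPKM in β8ITG-cKO 24 h. Over time only the WT change of Snai2 could be tested.

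Vim encodes vimentin, the main intermediate filament of the lens epithelium and of mesenchymal cells (chromosome 2, from 13574311 to 13582826), and stood at percentile 99.9 of all genes by mean FPKM. It was at 1519.80, 1543.11 and 1416.72 FPKM in WT 0 h and at 4251.38, 4416.87 and 3530.43 FPKM in WT 24 h. In β8ITG-cKO LCs it was at 1916.77, 1893.93 and 1937.90 FPKM at 0 hours and at 2364.32, 3176.00 and 2888.28 FPKM at 24 hours PCS. The 0 h and 24 h libraries were apart in both genotypes, with the larger step in WT. Vim rose 2.72-fold in WT (log2 change 1.44, standard error 0.25, limma-trend adjusted p = 0.0058), a call lost only with no filter on low values (adjusted p = 0.0752) among 13 alternatives. Its 1.47-fold rise in β8ITG-cKO (log2 change 0.54, standard error 0.18, limma-trend adjusted p = 0.0413) was lost after rescaling (0.24, adjusted p = 0.312), with no filter on low values (adjusted p = 0.172) and in 5 of 6 fits with a library left out (adjusted p = 0.0795 to 0.126), all but that without β8ITG-cKO 24 h replicate 1. The difference between the changes was -0.90 (standard error 0.27, limma-trend adjusted p = 0.0611). It missed the threshold, and passed after rescaling (-0.93, adjusted p = 0.031), with the filter at 2 FPKM (adjusted p = 0.0415) and without WT 24 h replicate 3 (adjusted p = 0.0395).

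Nes encodes nestin, an intermediate filament of progenitor and regenerating cells that assembles with vimentin (chromosome 3, from 87971093 to 87980451), and had the largest change of the 10 genes. It was at 8.92, 14.66 and 15.57 FPKM in WT 0 h and at 86.13, 234.98 and 128.93 FPKM in WT 24 h, an 11.5-fold rise of the mean (log2 change 3.34, standard error 0.36, limma-trend adjusted p = 0.000926). In β8ITG-cKO LCs it went from 3.88, 8.50 and 6.51 FPKM to 56.28, 56.42 and 48.19 FPKM, an 8.52-fold rise (log2 change 2.95, standard error 0.22, limma-trend adjusted p = 5.78e-05). Each WT library lay above each β8ITG-cKO library of the same time. The fold of the rise did not differ detectably between genotypes, with a difference of -0.39 and a 95% interval of -1.43 to 0.66 (limma-trend adjusted p = 0.67). Retinal Müller glia can also express nestin and vimentin. The 5 Müller glia markers summed to 992 to 1970 FPKM in WT 0 h, 665 to 1263 FPKM in WT 24 h, 811 to 1249 FPKM in β8ITG-cKO 0 h and 732 to 1383 FPKM in β8ITG-cKO 24 h, mostly Apoe. Among these 5, Rlbp1 was at 0.27, 1.45 and 4.12 FPKM in WT 24 h and at 6.53, 8.27 and 7.31 FPKM in β8ITG-cKO 24 h, while Glul was at 157.81, 173.36 and 288.76 FPKM and at 158.84, 124.04 and 205.10 FPKM. Slc1a3, the only 1 of the 5 to pass between the genotypes at 24 hours (1.43), had 3.08, 3.09 and 5.81 FPKM in the WT libraries against 8.87, 10.52 and 18.37 FPKM in those of β8ITG-cKO. Over time 1 of the 5 fell in WT (3 after rescaling) and 3 rose in β8ITG-cKO (2 after rescaling). Before rescaling, 8.81% of all genes fell in WT and 35.4% rose in β8ITG-cKO. Their part in the Nes and Vim results was not tested.

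Cdh1, which encodes E-cadherin, the epithelial adherens junction cadherin (chromosome 8, from 106603350 to 106670247), moved in opposite directions in the 2 genotypes. It was at 58.67, 55.62 and 63.05 FPKM in WT 0 h and at 75.20, 77.47 and 89.98 FPKM in WT 24 h. In β8ITG-cKO LCs it was at 98.31, 93.59 and 93.21 FPKM at 0 hours and at 43.19, 46.49 and 37.66 FPKM at 24 hours PCS. No group overlapped any other, the order from low to high being β8ITG-cKO 24 h, WT 0 h, WT 24 h and β8ITG-cKO 0 h. Cdh1 fell by 1.15 on the log2 scale in β8ITG-cKO (standard error 0.10, limma-trend adjusted p = 0.000119), with means of 95 ± 2.84 and 42.4 ± 4.46 FPKM (SD, n = 3), and passed in all 13 alternatives. In WT the means were 59.1 ± 3.73 and 80.9 ± 7.96 FPKM (SD, n = 3), a rise of 0.44 (standard error 0.14, limma-trend adjusted p = 0.0474). This call was marginal: it was lost in each of the 6 fits with a library left out (adjusted p = 0.0749 to 0.154), after rescaling (0.18, adjusted p = 0.428) and with no filter on low values (adjusted p = 0.0503), with the direction kept.

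The difference between the changes of Cdh1 was -1.59 (standard error 0.16, limma-trend adjusted p = 0.00143), and Cdh1 was the only 1 of the 9 genes tested to pass, where 9.39% of all 15262 genes passed. It passed in all 18 alternatives, with values from -1.66 to -1.51. Retina markers also moved apart between the genotypes over time, with all 8 higher in this comparison, and their part in the Cdh1 result was not tested. The retina sums were 912, 768 and 916 FPKM in β8ITG-cKO 24 h, so leaving out a single library cannot decide that part. Without WT 0 h replicate 2, the library with the highest retina sum, the difference was -1.55 (limma-trend adjusted p = 0.00229). Without WT 24 h replicate 3, which had the high Krt15 and the highest Cdh1 of its group, the difference was -1.51 (limma-trend adjusted p = 0.00347).

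**Figure D3:**
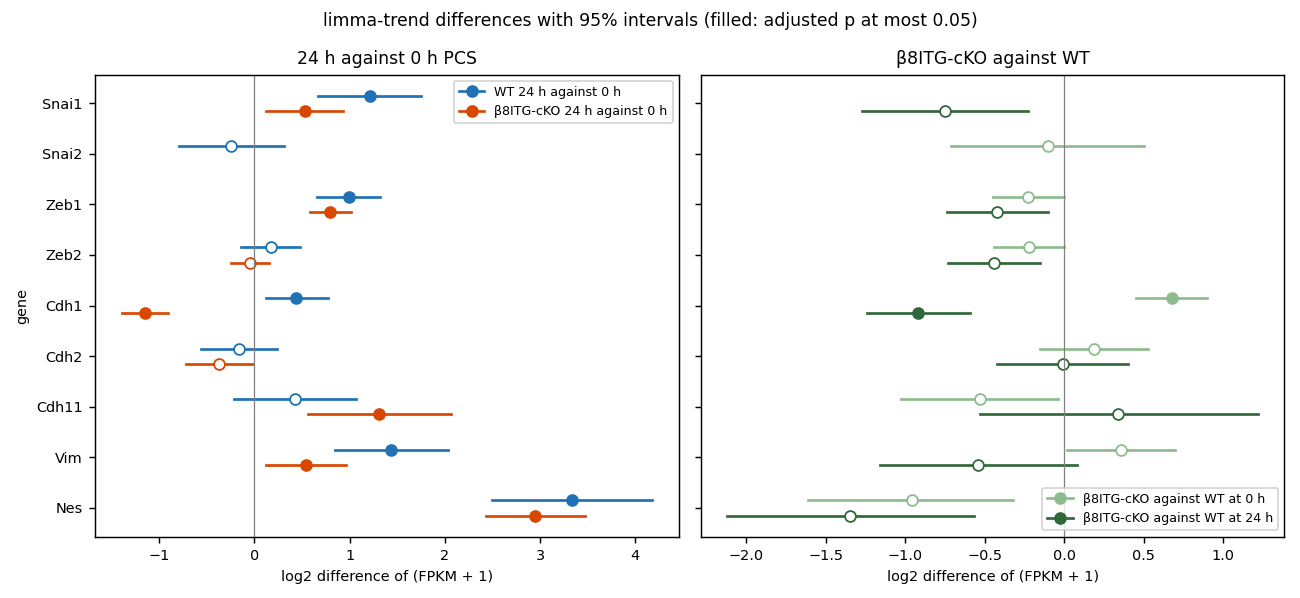
Differences in log2(FPKM + 1) of the 9 genes that could be tested (horizontal axis) over time and between genotypes; points are limma-trend estimates, lines 95% intervals, and filled points passed an adjusted p of at most 0.05. The Cdh1 intervals lie on opposite sides of 0 in the 2 genotypes over time (0.44 and -1.15) and at the 2 times between genotypes (0.68 and -0.92).

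Cdh2 encodes N-cadherin, the other classical cadherin of the lens (chromosome 18), and did not pass in any comparison. It was at 63.98, 66.07 and 71.14 FPKM in WT 0 h, 74.72, 51.02 and 55.79 FPKM in WT 24 h, 61.74, 89.14 and 82.09 FPKM in β8ITG-cKO 0 h and 55.48, 55.98 and 66.86 FPKM in β8ITG-cKO 24 h. All groups overlapped in the comparisons made. The change was -0.16 in WT, with a 95% interval of -0.56 to 0.24 (limma-trend adjusted p = 0.499), and -0.37 in β8ITG-cKO, with an interval of -0.72 to -0.01 (adjusted p = 0.0824). After rescaling the latter was -0.67 and passed (adjusted p = 0.0111), as it did without β8ITG-cKO 0 h replicate 1 (-0.52, adjusted p = 0.0152).

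Cdh11 encodes cadherin-11, a mesenchymal and osteoblast cadherin (chromosome 8, from 102632095 to 102785983), and was the least abundant of the 3. It was at 2.69, 2.93 and 1.67 FPKM in WT 0 h, 2.15, 3.92 and 5.15 FPKM in WT 24 h, 1.81, 0.87 and 1.42 FPKM in β8ITG-cKO 0 h and 4.23, 2.84 and 8.67 FPKM in β8ITG-cKO 24 h. The WT groups overlapped and the β8ITG-cKO groups did not. It rose by 1.31 in β8ITG-cKO (standard error 0.32, limma-trend adjusted p = 0.0128), or by 0.94 without replicate 3 of the 24 h group (adjusted p = 0.0154), and its change in WT was 0.43 (adjusted p = 0.265). The changes did not differ detectably (0.88, 95% interval -0.15 to 1.90, limma-trend adjusted p = 0.283). The 5 fibroblast and corneal stroma markers, led by Pdgfra, summed to 28.9, 53.3 and 39.2 FPKM in β8ITG-cKO 0 h and to 11.5, 18.8 and 19.1 FPKM in β8ITG-cKO 24 h. Of the defining genes of this list, Kera was listed at 0 in all 6 β8ITG-cKO libraries, and the mean of Lum was at most 0.183 FPKM and that of Dcn at most 2.40 FPKM in any group. Pdgfra made up most of the sums and fell in β8ITG-cKO LCs (-1.45). Thy1, also a neuronal gene, rose there (0.79), a call lost after rescaling (0.61, adjusted p = 0.0793), and the means of Dcn were 0.0934 and 0.441 FPKM at 0 and 24 hours. The part of such cells in the Cdh11 result was not tested.

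Cadherins and their catenin partners can be compared within a library, which takes out its scaling. The ratio of Cdh1 to Cdh2 FPKM was 0.917, 0.842 and 0.886 in WT 0 h, 1.01, 1.52 and 1.61 in WT 24 h, 1.59, 1.05 and 1.14 in β8ITG-cKO 0 h and 0.778, 0.83 and 0.563 in β8ITG-cKO 24 h. E-cadherin RNA thus exceeded N-cadherin RNA in the 6 libraries of WT 24 h and β8ITG-cKO 0 h and was below it in the other 6. Against Ctnnb1, which encodes β-catenin and was the most abundant of the catenin genes (mean 75.3 FPKM), the mean Cdh1 ratio was 0.867, 1.1, 1.12 and 0.586 in the same order of groups. These ratios were chosen after the values were seen and carry no test.

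**Figure D4:**
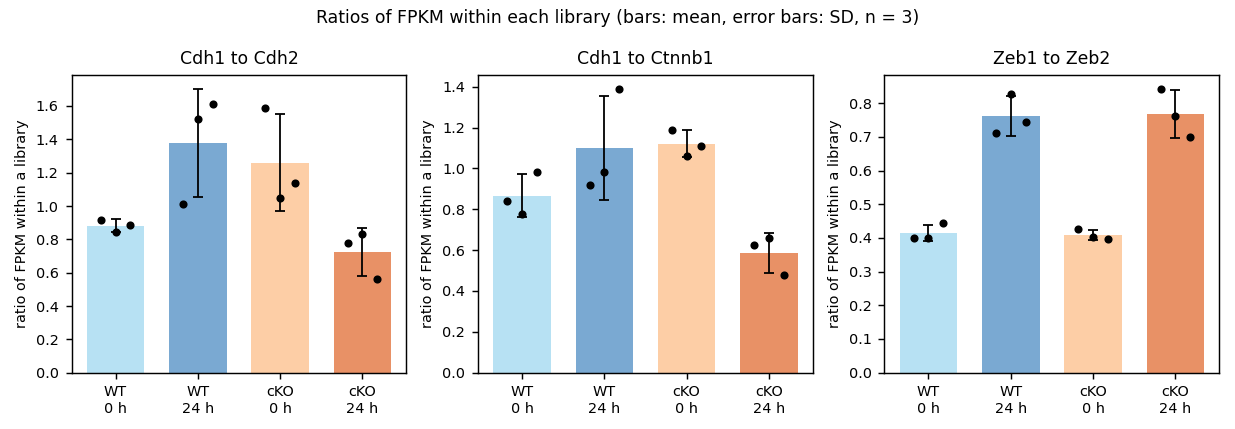
Ratios of FPKM of Cdh1 to Cdh2, Cdh1 to Ctnnb1 and Zeb1 to Zeb2 within each library (vertical axes, from 0), by group; points are libraries, bars means and error bars SD of 3. The Cdh1 to Cdh2 ratio is 0.563 to 0.83 in β8ITG-cKO 24 h and 1.01 to 1.61 in WT 24 h.

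Between genotypes at 0 hours PCS, Cdh1 alone of 8 tested genes passed and was higher in β8ITG-cKO LCs, by 0.68 (standard error 0.10, limma-trend adjusted p = 0.0116), where 4.18% of all 14708 genes were higher and 2.75% lower. None of the 8 met the second rule, against 2.52% of all genes, and with no adjustment Vim, Nes and Cdh11 also had p under 0.05. The Cdh1 call was lost without WT 0 h replicate 1 (adjusted p = 0.0551) or β8ITG-cKO 0 h replicate 3 (adjusted p = 0.0742), with differences of 0.67 and 0.69, and with a replicate block (adjusted p = 0.0556). A total of 5 of the 8 genes did not overlap between the genotypes, beside 30.8% of all genes: Cdh1 and Vim lay higher in β8ITG-cKO, and Zeb1, Zeb2 and Nes lower. The difference was 0.36 for Vim (limma-trend adjusted p = 0.189) and -0.96 for Nes (adjusted p = 0.0815). At this time 2 of 8 lens epithelium markers, Foxe3 and Mab21l1, were also higher in β8ITG-cKO LCs, by 0.89 and 0.97.

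At 24 hours PCS 6 of the 8 tested genes, namely Snai1, Zeb1, Zeb2, Vim, Nes and Cdh1, were lower in every β8ITG-cKO library than in every WT library, beside 9.0% of all 15366 genes. Cdh1 alone passed, at -0.92 (standard error 0.14, limma-trend adjusted p = 0.00982), where 0.644% of all genes were lower and 5.64% higher. With a replicate block it missed the threshold (adjusted p = 0.0556). After rescaling Nes and Zeb2 passed with it (adjusted p = 0.0467 and 0.0224), and the calls over all genes went from 867 higher and 99 lower to 771 and 230. None of the 8 met the second rule, against 3.66% of all genes, since Nes met its size criteria but missed the adjusted p and Cdh1, at 1.91-fold, missed the size. Without rescaling, the 5 genes other than Cdh1 missed the threshold: Nes was at -1.35 (adjusted p = 0.0581), Snai1 at -0.75 (0.104), Vim at -0.54 (0.313), Zeb2 at -0.44 (0.0892) and Zeb1 at -0.42 (0.136), all from limma-trend. With the spread estimated from all 12 libraries Snai1, Zeb1, Zeb2 and Nes passed as well. Cdh2 was at -0.01 (95% interval -0.42 to 0.40) and Cdh11 at 0.34 (-0.53 to 1.22). The 2 time comparisons and the 2 genotype comparisons share libraries, so their values are not independent of each other.

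Among 18 other EMT-linked transcription factors, 13 were tested over time. In WT 7 rose and 2 fell, with a median change of 0.61, and in β8ITG-cKO 6 rose and 2 fell, with a median of 0.13, beside 20.9% and 35.4% of all genes that rose. The largest rises were those of Hmga2, a chromatin architectural protein, which went from 0.00, 0.08 and 0.12 FPKM to 6.61, 7.80 and 5.08 FPKM in WT (2.80) and changed by 2.75 in β8ITG-cKO, of Runx1 (2.62 and 3.21) and of Ets1 (1.30 and 2.03). Id2 and Id3, which encode inhibitors of basic helix-loop-helix factors, fell by 1.10 and 1.16 in WT and by 0.81 and 0.71 in β8ITG-cKO. The most abundant gene of the list, Sox9, rose by 0.89 in WT and 1.19 in β8ITG-cKO. After rescaling 4 rose and 4 fell in WT, since the rises of Prrx1, Tcf3 and Sox9 no longer passed and Tcf4 and Id1 passed as lower, and 6 rose and 4 fell in β8ITG-cKO.

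Of 32 epithelial regulators and junction proteins, 23 were tested in WT, where 4 rose and 1 fell (median 0.17), and 20 in β8ITG-cKO, where 5 rose and 1 fell (median 0.28). These counts were no larger a share than the 20.9% and 35.4% of all genes that rose. The epithelial factor Elf3 (1.19, adjusted p = 0.0515 after rescaling) and the claudin Cldn4 (1.15) rose in WT and the claudin Cldn3 fell (-1.13). The Krüppel-like factor Klf5 (1.94) and the claudin Cldn1 (1.01) rose in β8ITG-cKO, and Tjp1, the most abundant gene of the list, fell (-0.35). Rescaling gave 3 higher and 4 lower genes in WT and 4 and 3 in β8ITG-cKO. Of the 20 genes of this list tested in β8ITG-cKO LCs, Tjp1 was thus the only 1 that fell with Cdh1 before rescaling. Among other cadherins and catenins 4 fell there, namely Jup (-0.47), Cdh3, Ctnna2 and Ctnnd2, and 3 rose.

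Among other cadherins and catenins, 12 were tested in WT, of which 4 rose and 4 fell (median 0.01), and 13 in β8ITG-cKO, of which 3 rose and 4 fell (median -0.14), where 20.9% and 35.4% of all genes rose and 8.81% and 10.7% fell. Vcl, which encodes the junction and focal adhesion protein vinculin, rose from 17.9 to 98.1 FPKM in WT (2.35) and from 16.3 to 67.3 FPKM in β8ITG-cKO (1.99). Cdh3, the P-cadherin gene, fell from 5.39, 6.32 and 7.49 FPKM to 1.28, 1.15 and 1.83 FPKM in WT, and by 1.88 in β8ITG-cKO. The neural α-catenin Ctnna2 fell by 2.07 and 1.87. Ctnna1, the epithelial α-catenin, rose by 0.92 in WT and by 0.34 in β8ITG-cKO, and the latter was 0.05 after rescaling (adjusted p = 0.669). The cadherin Cdh13 rose (1.19) and Cdh4 fell (-0.85) in WT, and the δ-catenin Ctnnd2 fell in both (-0.81 and -0.71). The endothelial cadherin Cdh5 rose by 0.68 in β8ITG-cKO (adjusted p = 0.0908 after rescaling), where 4 endothelium markers, Cdh5 among them, summed to 6.39, 5.14 and 7.09 FPKM against 0.994 to 1.59 FPKM at 0 hours. Rescaled, 3 genes rose and 4 fell in WT, and 1 rose and 8 fell in β8ITG-cKO, where of all genes 2195 rose and 2444 fell in WT and 3217 rose and 3005 fell in β8ITG-cKO.

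Of the intermediate filament genes other than Vim and Nes, 6 of 19 tested rose and 3 fell in WT (median 0.27), and 12 of 17 rose and 2 fell in β8ITG-cKO (median 1.02), beside the 20.9% and 35.4% of all genes that rose. After rescaling 4 rose and 3 fell in WT, and 9 rose and 3 fell in β8ITG-cKO. The nuclear lamin gene Lmna rose from 43.9 to 205 FPKM in WT and from 34.6 to 129 FPKM in β8ITG-cKO, Lmnb1 by 1.34 and 1.37, and the cytolinker Plec, the most abundant of the list, by 1.73 and 1.02. The lens beaded filament genes Bfsp1 and Bfsp2 fell in both, Bfsp1 by 2.90 and 3.11 and Bfsp2 by 1.44 and 1.88. All 7 tested lens fiber markers, a list that includes them, also fell in both, beside 8.81% and 10.7% of all genes. The neuronal filament genes Nefh, Nefl, Nefm and Ina and the glial Gfap rose in β8ITG-cKO, Nefh by 1.87 and Nefl by 1.69. In WT Ina fell (-0.87). Krt18, a simple epithelial keratin, rose by 2.13 in β8ITG-cKO, with a difference between the genotypes' changes of 2.14 (limma-trend adjusted p = 0.021). The keratin gene Krt8 did not pass in β8ITG-cKO (0.37). Nefl was at 12.28, 13.35 and 14.56 FPKM in β8ITG-cKO 24 h and at 1.01, 4.77 and 3.21 FPKM in WT 24 h. WT 0 h replicate 2, the library with the most retina markers, had 14.47 FPKM of Nefl. Its Krt18 was at 8.50 FPKM, against 3.92 and 2.47 FPKM in the other WT 0 h libraries. Whether the neuronal filament and Krt18 RNA came with retinal RNA was not tested.

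Of 17 mesenchymal genes tested, 10 rose, 1 fell and 6 did not pass in WT (median 1.26), and 9 rose, 1 fell and 7 did not pass in β8ITG-cKO (median 0.86), beside 20.9% and 35.4% of all genes that rose. Tagln, a smooth muscle actin-binding protein gene, rose by 4.30 and 4.54 in WT and β8ITG-cKO, and Fn1 by 4.73 and 3.57. Tnc had the largest change of the list (6.07 and 5.83). Sparc, the most abundant gene, fell by 0.58 and 1.17. No gene of the 17 passed for the difference between the genotypes' changes, except S100a4 after rescaling (-1.15, adjusted p = 0.0278). The 3 largest changes kept their calls after rescaling, which gave 10 higher and 3 lower in WT and 9 and 3 in β8ITG-cKO.

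**Figure D5:**
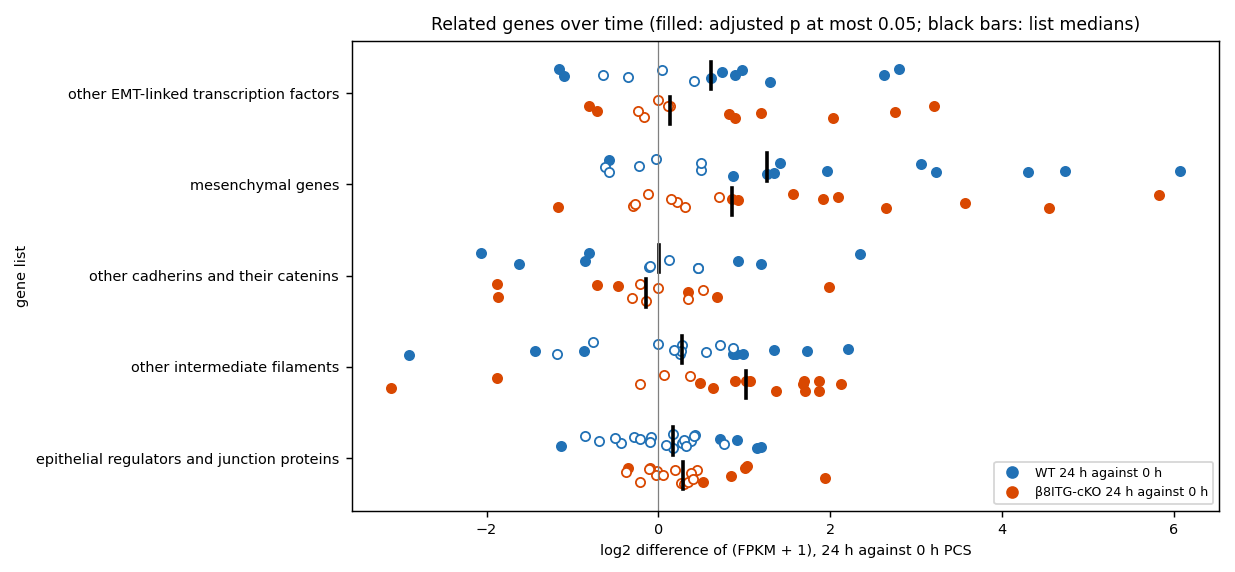
Changes from 0 h to 24 h PCS in log2(FPKM + 1) of the tested genes of 5 related lists (rows) in WT and β8ITG-cKO; each point is a gene, filled points passed an adjusted p of at most 0.05 and black bars are list medians. The median of the mesenchymal genes is 1.26 in WT and 0.86 in β8ITG-cKO, and that of the epithelial and junction genes is 0.17 and 0.28.

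At 24 hours PCS, the factor Prrx2 (-0.89) and Perp (-0.62, adjusted p = 0.0555 after rescaling) were lower and Llgl2 (0.81) was higher in β8ITG-cKO LCs, and Nefh, Nefl, Ina and Krt18 were higher, by 1.46 to 2.06. These were 1 of 13 tested transcription factors, 1 higher and 1 lower of 21 epithelial and junction genes, and 4 of 21 intermediate filament genes. None of 13 cadherins and catenins or 17 mesenchymal genes passed, and 5.64% of all genes were higher and 0.644% lower. The median difference of the mesenchymal genes was -0.31, against 0.0343 over all genes. Some of them spread widely in WT 24 h, such as Fn1 at 109.58, 180.54 and 46.67 FPKM, so a missed threshold does not show equal levels. After rescaling Lmna (-0.71, adjusted p = 0.0279) and Itga5 (-1.32, adjusted p = 0.0466) passed as lower. At 0 hours PCS the epithelial Krüppel-like genes Klf4 (-2.23, with means of 19.4 in WT and 3.24 FPKM in β8ITG-cKO) and Klf5 (-2.00, with means of 4.89 and 0.312 FPKM) and the factors Ets1, Id2 and Id3 were lower in β8ITG-cKO, Cdh13 was higher (1.17), Fn1 was higher (0.84) and Tagln was lower (-1.01). These were 3 of 12 tested transcription factors, 2 of 20 epithelial and junction genes and 1 of 12 cadherins and catenins. Of 17 mesenchymal genes 1 was higher and 1 lower, and none of 18 intermediate filament genes passed. Of all genes 4.18% were higher and 2.75% lower. After rescaling Foxc1, Id1, Ina, Mmp14 and Fbn1 also passed as lower (-0.82 to -0.49). The genes of this paragraph were named after their values were seen.

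Over all 12 libraries, log2(FPKM + 1) of Zeb1 followed that of Nes closely (r = 0.98) and that of Vim (0.89), and Cdh1 had r of -0.23 with Zeb1, 0.25 with Zeb2 and 0.07 with Snai1. Among 6906 other genes of at least 5 mean FPKM (6907 for Cdh11), the patterns most like Zeb1 were those of Tubb6 (0.987) and S100a10 (0.986), most like Nes those of Clic4 (0.982) and Slc4a7 (0.981), and most like Vim those of Steap2 (0.990) and Ddb1 (0.982). Those most like Cdh1 were Lima1 (0.948) and Wnt7b (0.939), most like Zeb2 Fam169a (0.941) and Rplp1 (0.931), and most like Cdh11 Nid2 (0.974) and Nr2f1 (0.962). The pattern of Tspan14 was close to that of Cdh2 (0.934). The points share 4 groups and 3 libraries in each, so these correlations mainly describe group means and carry no test.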

How the data were processed

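RNA was measured in 12 libraries of pooled lens capsules, 3 for each genotype and time. Per the labels, the processing tools were FastQC, cutadapt 1.12, TopHat2 2.1.0 and Cuffdiff 2.2.1, with builds mm10 and GRCm38.p5. The authors deposited 4 tables of 45859 gene rows, each with the FPKM of 2 groups of libraries made by Cuffdiff from read pairs of a stranded total RNA kit. A library's FPKM were identical in each table that held it. Columns of Cuffdiff's own group means, fold changes and significance were present and were not used. FPKM are not counts, so no count model was fitted and no counting interval can be given. The 10 highest genes held 36.0% to 49.6% of a library's summed FPKM, and a change in such genes can shift its other FPKM together.

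For each comparison a linear model of log2(FPKM + 1) was fitted to genes averaging 0.5 FPKM or more over the libraries involved, using limma 3.58.1 (R 4.3.3) with a trended prior, and p-values were adjusted by Benjamini-Hochberg over every gene in the fit. The interaction of genotype and time was fitted over all 12 libraries. On simulated data with 200 changed genes per comparison, the fit found 61.5%, 56%, 61% and 56.5% of genes changed 2-fold and 96.5%, 94.5%, 93% and 92.5% of those changed 4-fold, for WT over time, β8ITG-cKO over time, the genotypes at 24 hours and the genotypes at 0 hours. The fits were repeated with pseudocounts of 0.1 and 0.5, with no filter or a filter at 2 FPKM, after scaling libraries to a common median (genes averaging 2 FPKM or more), with the spread taken from all 12 libraries, with replicate number as a blocking factor, and without each library in turn. Nothing states that replicates came from separate sets of animals beyond their being called biological, so p-values measure the spread between these libraries.

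The 10 genes, the 5 gene lists and the 10 marker lists (lens epithelium, lens fiber, retina, Müller glia, neutrophil, macrophage, corneal epithelium, fibroblast and corneal stroma, pigment cell and endothelium) were chosen with earlier results of these data known. From each gene list, the 3 genes of largest change in each direction that passed without overlap, and the most abundant gene, are named. Of the 18 other cadherins and catenins, 17 were found by symbol. For genes of at least 2 mean FPKM, the 2 other genes of at least 5 mean FPKM with the highest correlation are named. A few genes that these rules pick are not reported here. Positions are the loci of the files on GRCm38, which can take in overlapping genes. Promoter windows are from RefSeq (GRCm38.p6). Figures were drawn with Python 3.11.15, pandas 2.3.3, numpy 2.4.6 and matplotlib 3.10.9.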

Additional observations from a re-analysis of the deposited data

Results flagged for a closer look

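Of the 9 genes tested (Twist1 was too low), Cdh1 passed a test of the difference between the changes over time in the 2 genotypes, at -1.59 on the log2(FPKM + 1) scale (limma-trend adjusted p = 0.00143), with a fall in β8ITG-cKO LCs and a marginal rise in WT LCs that was lost in all 6 fits with a library left out (adjusted p = 0.0749 to 0.154) and after rescaling (0.18, adjusted p = 0.428). Vim missed this test (-0.90, adjusted p = 0.0611) and passed it in 3 of 18 alternatives.

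Among related genes, the same test passed for the junction genes Tjp1 (-0.53, adjusted p = 0.0353) and Ctnna1 (-0.57, adjusted p = 0.0399) and for the cytolinker Plec (-0.71, adjusted p = 0.0413), all with a lower change in β8ITG-cKO LCs (limma-trend). After rescaling to the same median Tjp1 and Plec no longer passed (adjusted p = 0.0507 and 0.0585), and the catenin-like gene Ctnnal1 did (-0.64, adjusted p = 0.0281). Without rescaling, the test also passed, with a higher change in β8ITG-cKO LCs, for Nefl (2.87, adjusted p = 0.0304), Nefh (2.63, adjusted p = 0.00647), Ina (2.55, adjusted p = 0.00222) and Krt18 (2.14, adjusted p = 0.021). By list, 1 of 20 tested epithelial and junction genes passed, as did 1 of 12 other cadherins and catenins. Of 18 other intermediate filament genes, 4 passed as higher and 1 as lower. None of the 13 other transcription factors or 17 mesenchymal genes passed, beside 9.39% of all 15262 genes. The 8 retina markers summed to 912, 768 and 916 FPKM in β8ITG-cKO 24 h against 67.7, 120 and 127 FPKM in WT 24 h, and their part in these differences was not tested.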

How the results depend on the processing

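Alternatives changed few values of single genes: of 578 recomputed values, 529 kept direction and side of the threshold, 26 lost a call, 15 gained one and 8 turned sign. Of the 10 genes, 5 passed over time in WT, 6 in β8ITG-cKO, and 1 each at 24 h, at 0 h and for the interaction. With no filter on low values 3 passed in WT (Vim at 0.0752 and Cdh1 at 0.0503 did not), and 254 genes in place of 1020 at 0 h. With the second rule the counts of the 10 were 3 in WT, 3 in β8ITG-cKO, 0 at 24 h and 0 at 0 h, and 2159, 2294, 562 and 371 of all genes. With the filter raised to 2 FPKM, 574 genes in place of 966 passed at 24 h, and the interaction gave 2 of the 10 and 930 in place of 1433 genes. After rescaling, 3 of the 10 passed at 24 h and 2 for the interaction (Vim joining Cdh1), beside 771 higher and 230 lower of all genes at 24 h and 1097 and 649 for the interaction, and Zeb2 in WT turned to -0.09. In 1 fit over all 12 libraries, 5 of the 10 and 1642 genes passed at 24 h. With a replicate block, 0 of the 10 passed at 24 h, where Cdh1 had an adjusted p of 0.0556, and 269 genes at 0 h, where Cdh1 also had 0.0556 and Nes passed (0.0373). The replicate numbers do not pair the samples: deviations of same-numbered libraries correlated at -0.22 to 0.08. Without 1 library at a time, the genes that passed numbered 2512 (without WT 0 h replicate 1) to 5087 (without WT 24 h replicate 3) in WT, where 4500 did with all, 439 (without β8ITG-cKO 24 h replicate 2) to 1108 at 24 h, 136 (without β8ITG-cKO 0 h replicate 3) to 756 at 0 h and 688 to 1921 for the interaction (β8ITG-cKO 0 h replicate 2 and WT 24 h replicate 3 being the ones left out), and of the 10 genes 1 to 2 passed at 24 h, 0 to 1 at 0 h and 1 to 2 for the interaction. In these fits 4 uncalled differences turned sign: Cdh2 (-0.12 to 0.15) and Cdh11 (-0.03 to 0.64) at 24 h, and Snai2 at 0 h (-0.24 to 0.12) and for the interaction (-0.10 to 0.31). Where the cause of a change is not the construction of the setting it was not tested. Without read counts, precision at the FPKM of Snai1, Snai2 and Twist1 is unknown beyond the spread of 3 libraries.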

Other observations

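Marker lists beyond those given above also moved with time or group. Macrophage markers, led by Lyz2, summed to 9.73, 10.2 and 6.58 FPKM in WT 0 h, 46.3, 47 and 25.2 FPKM in WT 24 h, 11.2, 7.2 and 8.67 FPKM in β8ITG-cKO 0 h and 27.6, 30.5 and 44 FPKM in β8ITG-cKO 24 h. Of the 5 tested, 3 rose in WT and 4 in β8ITG-cKO, with and without rescaling, beside 20.9% and 35.4% of all genes without it. Pigment cell markers, led by Dct, summed to 83.7, 28.2 and 19.9 FPKM in WT 0 h and to 11.5 to 15.5 FPKM in β8ITG-cKO 0 h, and none of the 5 passed over time in either genotype, except Tyrp1 as lower in WT after rescaling (-1.32, adjusted p = 0.0476). Of the lens epithelium markers, 5 of 8 fell in WT and 7 of 8 in β8ITG-cKO (7 and 8 after rescaling), among them Foxe3, a transcription factor of lens epithelial cells, by 1.05 and 2.15. Of all genes 8.81% and 10.7% fell before rescaling.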
